A study of Oryctolagus cuniculus with 9 samples.

Results

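The diaphragms of rabbits ventilated with positive end-expiratory pressure (PEEP) were compared with the diaphragms of rabbits ventilated without it, 3 RNA-seq libraries against 3. The genes described were those with a mean FPKM (fragments scaled to transcript length and to all mapped fragments) of at least 0.5 over these 6 libraries, which held for 13052 of the 29076 genes in the table. The rule used no difference between the groups. The MV group was ventilated in a volume assist-control mode for 48 h at a PEEP of 0. The article reports that these animals kept some breathing effort of their own. The MV_PEEP group carries a PEEP of 8 in its sample names, given without a unit. Neither the labels nor the article states how long the MV_PEEP group was ventilated, and the article gives no results for it, so a difference in duration or handling and a difference in PEEP cannot be told apart here. The CON group, anaesthetized animals that kept breathing on their own, also has 3 libraries, and its values stand beside the comparison as background without a test. The methods name New Zealand white rabbits for the CON and MV groups and do not describe the MV_PEEP group. For the groups they cover, the article describes pentobarbital anaesthesia, tracheostomy and light dexmedetomidine sedation without muscle relaxants. The labels number the libraries as replicates without stating that each came from its own rabbit, and the tests therefore weigh differences against the spread among libraries, which may be technical.

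During fully controlled ventilation the ventilator takes over the work of the diaphragm, and the unloaded muscle loses protein and force within days. The article describes the assist-control mode of the MV group as keeping some diaphragm contraction. PEEP keeps some pressure in the lungs when expiration ends, which enlarges the lungs, lowers the dome of the diaphragm and holds its fibres at a shorter length. Muscle fibres sense length and tension through titin and the proteins of the sarcomere, and proteasomes, chaperones and ubiquitin ligases set how fast their proteins are turned over.

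Total counts were 24670232 to 43697018 in the MV group and 33024311 to 41077310 in the MV_PEEP group, against 21646702 to 31791693 in the CON group. Muscle fibre genes were highly expressed in each library. The summed FPKM of 11 fibre markers, among them skeletal actin ACTA1, creatine kinase CKM and titin TTN, was 31360, 45200 and 42750 in MV replicates 1, 2 and 3 and 40240, 46360 and 22970 in MV_PEEP replicates 1, 2 and 3. MV_PEEP replicate 3 stood apart from the other libraries. Its log2 CPM correlated with the other 5 libraries at 0.777 to 0.845 across genes, whereas the other pairs lay between 0.84 and 0.934. MV replicate 3 lay far out too. On the first principal component of log2 CPM (42.4% of the variance) it was at 102.3 and MV_PEEP replicate 3 at -109.7, with the other ventilated libraries between them. Markers of several other cell types were far higher in MV_PEEP replicate 3. The 12 fibroblast markers summed to 4651 FPKM in MV_PEEP replicate 3 and to 204 to 579 in the other 5 ventilated libraries, with 710 to 2282 in the CON group. The 6 adipocyte markers summed to 8161 FPKM in it against 505 to 945. Mesothelial markers, of the cell layer that covers the diaphragm, summed to 96.7 FPKM against 0.742 to 2.84, and 12 macrophage and monocyte markers to 251 against 25.9 to 51.5. In bulk tissue, more cells of a type and more RNA per cell cannot be told apart. Results that moved with this library are therefore given with and without it. MV replicate 1 carried the most RNA of neutrophil markers, 1066 FPKM over 9 genes against 30.6 to 285 in the other 5 ventilated libraries and 2.96 to 19.3 in the CON group.

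**Figure D1:**
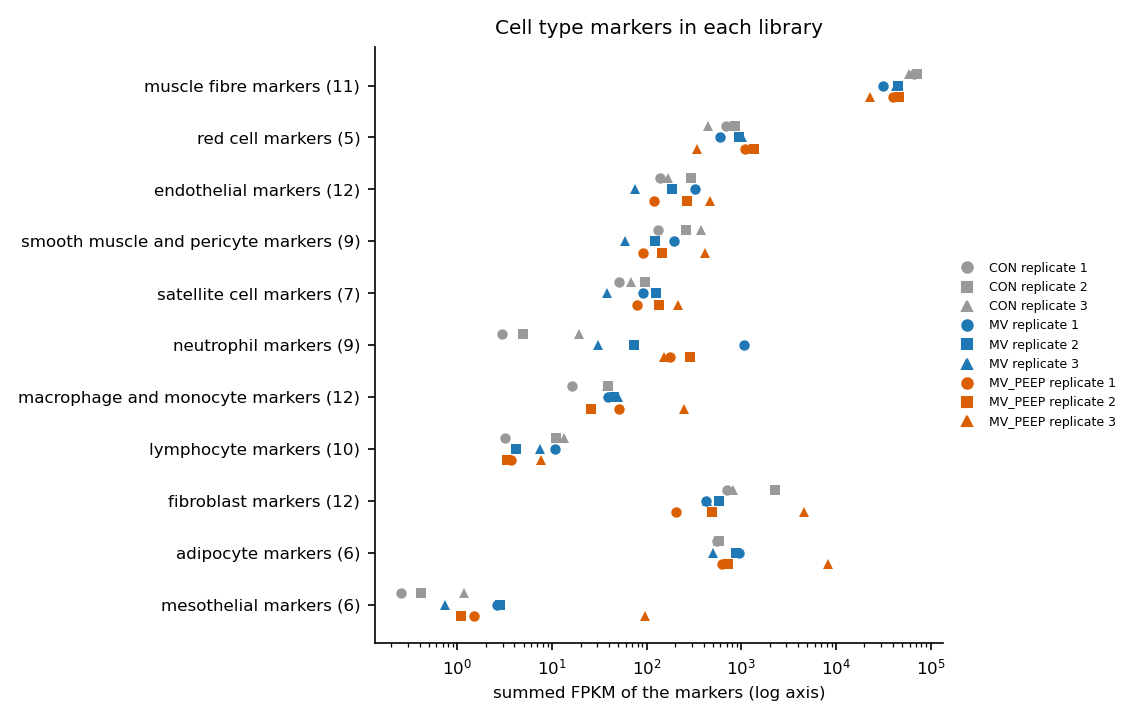
Summed FPKM of the markers of 11 cell types (log axis) in each of the 9 libraries, with the number of markers in parentheses; colour stands for the group and shape for the replicate number. MV_PEEP replicate 3 lies above every other library for fibroblast (4651), adipocyte (8161), mesothelial (96.7) and macrophage markers (251) and below them for muscle fibre markers (22970), and MV replicate 1 lies highest for neutrophil markers (1066).

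In edgeR's quasi-likelihood test 0 of 13052 genes (0%) reached the adjusted threshold of 0.05, and the smallest Benjamini-Hochberg adjusted p was 0.999. At an unadjusted p under 0.05, 182 genes were higher in the MV_PEEP group (1.39%) and 105 were lower (0.804%). The adjusted threshold of 0.05 let through 4 higher and 7 lower genes in DESeq2 and 0 in limma. Since no gene passed, the values below rank and describe genes without calling them changed. With a log2 fold change of at least 1 as well, 173 genes were higher (1.33%) and 93 lower (0.713%). Without scaling beyond library size, which moved the median log2 fold change of all genes from 0.04 to 0.25, the split was 224 higher and 46 lower. Fold changes lay above 0 for 6935 genes (53.1%) and below 0 for 6117 (46.9%). The 3 libraries of one group lay wholly above or below those of the other, in CPM scaled by TMM, for 446 genes higher in the MV_PEEP group (3.42%) and 324 lower (2.48%).

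The spread within each group was larger than the difference between them for most genes. The median SD of log2 CPM over 3 libraries was 0.59 in the MV group and 0.58 in the MV_PEEP group, and 0.39 between MV_PEEP replicates 1 and 2 alone. The median SD of 2 values is lower than that of 3 from the same spread, so the last value is not a like comparison. The median absolute log2 fold change was 0.36, and for 9836 genes (75.4%) it was smaller than the pooled SD. MV_PEEP replicate 3 held the highest value of 138 of the 173 genes that were higher (79.8%), whereas it held the highest of the 6 values for 29.4% of all genes tested. The 173 genes were chosen as higher in the MV_PEEP group, which favours a highest value in a library of that group. The share of all genes is therefore not a like comparison. MV_PEEP replicate 3 held the lowest value of 31 of the 93 genes that were lower (33.3%), which were likewise chosen by direction, and no share of all genes was counted for these. Without this library 65 genes were higher and 114 lower past both lines, of which 37 and 46 were among those found with all 6 libraries, 21.4% and 49.5% of these. At an unadjusted p alone, 74 genes were higher (0.567%) and 118 lower (0.904%) without it. Fold changes then lay above 0 for 46.3% of genes and below 0 for 53.6%.

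**Figure D2:**
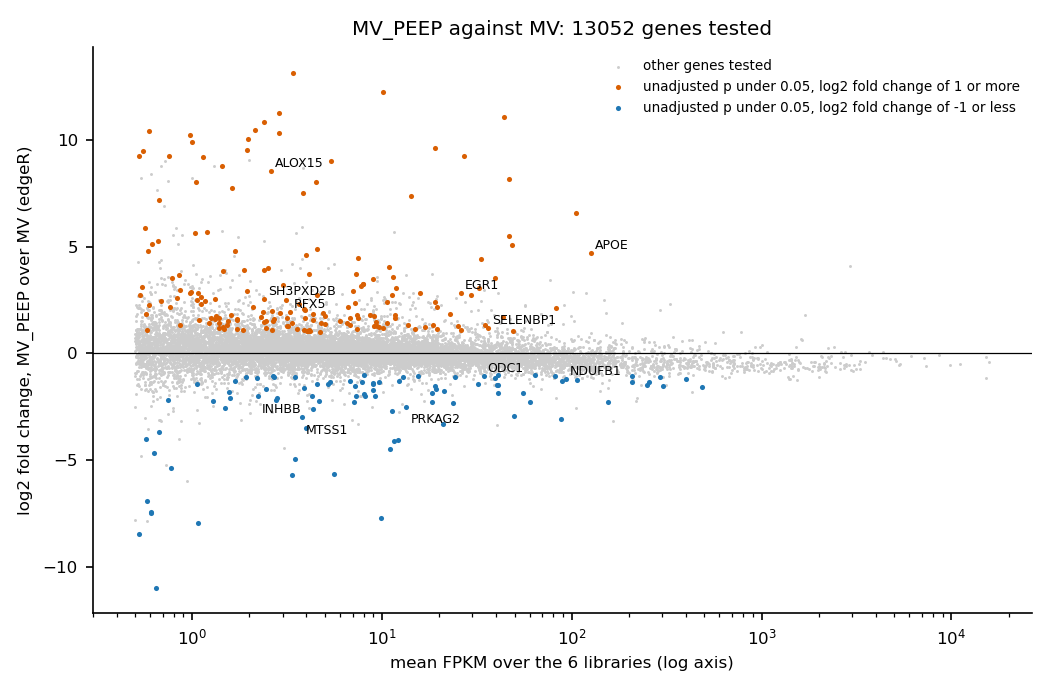
Each point is a gene: mean FPKM over the 6 libraries (log axis) against the log2 fold change of the MV_PEEP group over the MV group in edgeR. Coloured points are the 173 genes higher and the 93 genes lower at an unadjusted p under 0.05 and an absolute log2 fold change of at least 1, some with their symbols, and 0 genes reached the adjusted threshold.

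The gene with the smallest p among the named genes higher in the MV_PEEP group was RFX5 (chr13:40851384-40857298 in OryCun 2.0), which encodes the DNA-binding subunit of a complex on the promoters of MHC class II genes. Its FPKM was 1.43, 0.938 and 1.25 in MV replicates 1, 2 and 3 and 4.32, 5.59 and 6.15 in MV_PEEP replicates 1, 2 and 3. All MV_PEEP libraries were above all MV libraries, and the 3 CON libraries lay between 1.03 and 3.39. The means were 1.21 ± 0.25 and 5.36 ± 0.936 (SD, n = 3 each), and the log2 fold change was 1.92 (SE 0.39), and 1.97 without MV_PEEP replicate 3. SNX27, a sorting nexin that returns membrane proteins from endosomes to the cell surface, lies on the same chromosome at chr13:40474714-40560131. It was at 1.57, 1.58 and 1.67 FPKM in the MV group and at 3.69, 5.2 and 10 in the MV_PEEP group. The MV libraries were almost level, and each MV_PEEP library exceeded them (log2 fold change 1.67, SE 0.38; 1.40 without MV_PEEP replicate 3). SELENBP1, which encodes a selenium-binding methanethiol oxidase, lies nearby at chr13:40811428-40820733. Its FPKM was 51.7, 46.1 and 58.1 in the MV_PEEP group and 19.6, 28.3 and 13.1 in the MV group, without overlap, with 37.5, 43.0 and 13.0 in the CON group. This gave 52.0 ± 6.02 against 20.3 ± 7.65 FPKM (SD, n = 3 each; log2 fold change 1.18, SE 0.36, and 1.26 without MV_PEEP replicate 3).

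FEZ1, an adaptor of kinesin transport along microtubules, was at 1.17, 2.39 and 1.45 FPKM in the MV group and at 6.60, 5.87 and 8.67 in the MV_PEEP group. Its groups were well apart (log2 fold change 1.85, SE 0.43; 1.86 without MV_PEEP replicate 3), although CON replicate 2 was at 4.12. PLA2G15, the phospholipase A2 of lysosomes, was at 2.70, 3.74 and 3.40 FPKM against 9.92, 11.7 and 7.86. Its lowest MV_PEEP value was that of replicate 3 (log2 fold change 1.40, and 1.66 without that library). NDST1, which starts the sulfation of heparan sulfate chains, had MV values close together, at 2.44, 2.40 and 2.19 FPKM against 4.11, 5.94 and 7.29. Its log2 fold change of 1.06 was close to the 1.04 found without MV_PEEP replicate 3. EGR1, a transcription factor induced within minutes of a stimulus, was at 11.4, 4.17 and 2.75 FPKM in the MV group and at 14.9, 95.9 and 26.7 in the MV_PEEP group. Its groups did not overlap, but MV_PEEP replicate 2 carried much of the difference: the log2 fold change was 2.80 with all libraries and 1.55 without that one.

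The other named genes that were higher had their highest value in MV_PEEP replicate 3, and their fold changes were smaller without it. RENBP, an epimerase of amino sugars, was at 4.05, 2.71 and 1.77 FPKM in the MV group and at 7.03, 8.19 and 20.7 in the MV_PEEP group. Its log2 fold change was 1.80 with this library and 1.41 without it. ALOX15, a lipoxygenase that oxidizes polyunsaturated fatty acids, had FPKM of 0, 0.0227 and 0 against 0.0943, 0.367 and 15.1. These values rest on 4 reads over the MV group and on 2421 over the MV_PEEP group, and no CON library had a read. The log2 fold change of ALOX15 was 8.55 with all libraries and 4.56 without MV_PEEP replicate 3. APOE, a lipid carrier made by macrophages and liver, was at 9.40, 9.45 and 2.29 FPKM against 7.64, 37.9 and 692. Its groups overlapped, since MV_PEEP replicate 1 was below MV replicates 1 and 2, and the log2 fold change went from 4.69 to 1.65 without MV_PEEP replicate 3. ARHGEF17, a guanine nucleotide exchange factor, was at 0.477, 0.687 and 0.363 FPKM against 0.877, 1.41 and 3.74 (log2 fold change 1.67, and 1.12 without MV_PEEP replicate 3). SH3PXD2B, a scaffold of the invasive membrane structures called podosomes, was at 0.520, 0.843 and 0.290 FPKM against 1.27, 1.18 and 10.2. Its log2 fold change was 2.56, and 1.16 without MV_PEEP replicate 3. The summed fibroblast, macrophage and adipocyte markers were highest in this library too, and their part in these 5 values was not tested. Of the 12 named genes higher in the MV_PEEP group, 11 had groups that did not overlap in scaled CPM, and 10 kept an unadjusted p under 0.05 without MV_PEEP replicate 3. Over all genes the shares were 3.42% and 0.567%. These 12 genes were chosen by their p, so their counts describe the choice.

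MTSS1 had the smallest p of the named genes in either direction. It encodes a protein that binds actin and bends the plasma membrane, at chr3:140280340-140448763. The FPKM was 7.01, 8.99 and 3.77 in the MV group and 0.384, 0.941 and 1.67 in the MV_PEEP group. Even the highest MV_PEEP library was below the lowest MV library, and the CON group was at 2.28, 7.89 and 4.49, all above the MV_PEEP group. The means were 6.59 ± 2.63 and 0.999 ± 0.646 FPKM (SD, n = 3 each), with a log2 fold change of -2.98 (SE 0.51) and of -3.34 without MV_PEEP replicate 3. An exact 2-sided permutation test of the mean FPKM gave p = 0.1 for RFX5, SNX27, SELENBP1 and MTSS1, the smallest value that 3 against 3 libraries allow.

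NDUFB1, an accessory subunit of respiratory complex I, was at 138, 122 and 111 FPKM in the MV group and at 44.1, 62.9 and 81.2 in the MV_PEEP group. These groups were separate and the MV libraries close together (123.7 ± 13.7 against 62.7 ± 18.5, SD, n = 3 each; log2 fold change -1.22, SE 0.31). ODC1, the rate-limiting enzyme of polyamine synthesis, was at 42.8, 40.9 and 46.8 FPKM in the MV group, at 20.2, 20.3 and 34.9 in the MV_PEEP group and at 14.3, 13.9 and 13.5 in the CON group. The MV_PEEP libraries thus lay between the other groups, with a log2 fold change against the MV group of -1.06 (SE 0.34). The remaining 7 polyamine genes tested did not reach an unadjusted p of 0.05. GRPEL2, which helps the mitochondrial HSP70 release its clients, was at 3.33, 3.86 and 3.12 FPKM against 1.43, 1.91 and 2.41. CHCHD4, which folds proteins imported into the intermembrane space of mitochondria, was at 12.4, 5.75 and 9.27 against 4.13, 2.74 and 6.35. In FPKM its groups overlapped by the pair of MV replicate 2 and MV_PEEP replicate 3, whereas in scaled CPM they did not.

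TFRC, the transferrin receptor that brings iron into cells, was at 19.2, 23.8 and 8.11 FPKM in the MV group and at 8.66, 6.35 and 7.52 in the MV_PEEP group. MV replicate 3 lay within the MV_PEEP range, and the log2 fold change was -1.30 (SE 0.44). PRKAG2, the gamma 2 subunit of the energy sensor AMPK, was at 55.9, 7.12 and 5.19 FPKM against 4.72, 3.34 and 4.52. MV replicate 1 made most of its log2 fold change of -2.51, which was -0.80 without that library. INHBB, a subunit of activins and inhibins, was at 6.07, 3.37 and 1.01 FPKM against 0.448, 1.36 and 1.07, with overlapping groups. N6AMT1, a methyltransferase, was at 14.1, 13.7 and 4.74 FPKM against 3.18, 4.76 and 6.45. Its MV replicate 3 was among the MV_PEEP values. Of the 12 genes that the rule chose as lower, 11 had groups that did not overlap in scaled CPM, and 10 kept an unadjusted p under 0.05 without MV_PEEP replicate 3. Over all genes the shares were 2.48% and 0.904%. As these 12 were chosen by their p too, their counts describe the choice.

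**Figure D3:**
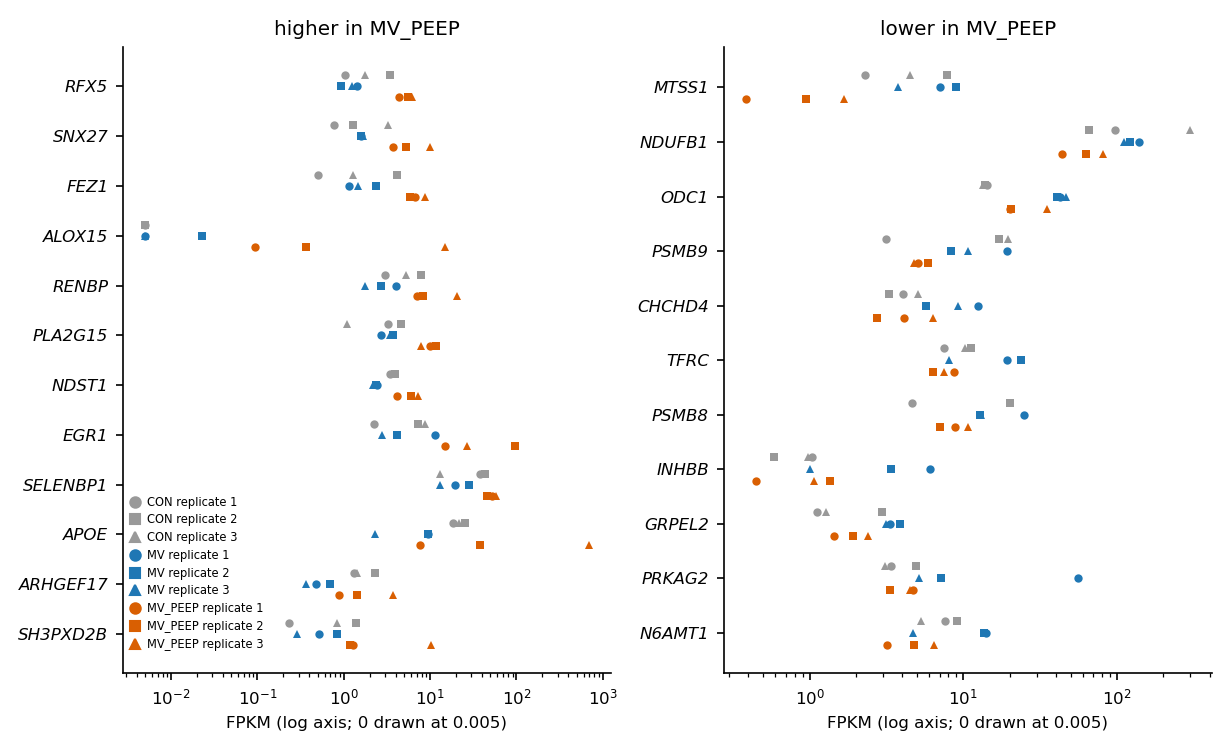
FPKM (log axis, 0 drawn at 0.005) of the 12 named genes higher in the MV_PEEP group (left) and the genes lower in it (right) in each library of the CON, MV and MV_PEEP groups; shape stands for the replicate number. RFX5, FEZ1 and PLA2G15 are apart in all libraries, whereas ALOX15, APOE and SH3PXD2B are far highest in MV_PEEP replicate 3 and PRKAG2 is far highest in MV replicate 1 (55.9).

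The genes that load peptides onto MHC class I molecules formed a small group of their own on the genome. PSMB8 and PSMB9 encode catalytic subunits of the immunoproteasome, which cuts proteins into such peptides, and TAP1 encodes a subunit of the transporter that carries them into the endoplasmic reticulum. The 3 genes are neighbours on chromosome 12, PSMB8 at chr12:23356782-23360614, TAP1 at chr12:23361438-23370950 and PSMB9 at chr12:23371426-23377476. PSMB9 was at 19.3, 8.36 and 10.7 FPKM in the MV group and at 5.04, 5.87 and 4.77 in the MV_PEEP group. PSMB8 was at 24.7, 12.9 and 13.1 against 8.78, 7.07 and 10.7. In both, each MV_PEEP library was below each MV library. The CON group was uneven, at 3.15, 17.1 and 19.5 FPKM for PSMB9 and 4.61, 20.1 and 20.1 for PSMB8. TAP1 was at 25.8, 8.79 and 5.77 FPKM against 5.72, 4.23 and 7.56, so that MV replicate 3 fell inside the MV_PEEP range. The log2 fold changes were -1.44 for PSMB9 (SE 0.46), -1.12 for PSMB8 (SE 0.38) and -1.34 for TAP1 (SE 0.52). Without MV replicate 1, the highest ventilated library for these genes, that of TAP1 was -0.60, that of PSMB9 -1.15 and that of PSMB8 -0.86. B2M, the light chain of MHC class I, was at 423, 172 and 173 FPKM against 124, 165 and 214 (log2 fold change -0.80, SE 0.42; -0.37 without MV replicate 1).

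PSMB9, PSMB8 and TAP1 belonged to the interferon response list. Of its 24 members tested, 11 were above 0 and 13 below, with a median log2 fold change of -0.06. They were among the 4 members with an unadjusted p under 0.05, which were also the 4 whose groups did not overlap in scaled CPM. Over all genes, 0.804% were lower at that p and 2.48% were lower without overlap. IFI44L, an interferon-induced gene, was at 3.21, 2.70 and 1.70 FPKM in the MV group and at 2.29, 6.77 and 10.5 in the MV_PEEP group (log2 fold change 1.08, SE 0.51). The sign of the list's median depended on single libraries: it was 0.36 without MV replicate 1 and 0.10 without MV_PEEP replicate 1. Among 9 genes of antigen presentation 3 were above 0 and 6 below, with RFX5 the highest at 1.92 and NLRC5, the activator of MHC class I genes, the lowest at -1.53. RFX5 acts on MHC class II genes, yet RLA-DR-ALPHA, the rabbit class II alpha chain, was at 15.99, 16.8 and 8.78 FPKM against 10.9, 9.06 and 22.2 (log2 fold change -0.21, SE 0.39).

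Proteasome subunits had small fold changes of a single sign, without a test of the list. All 30 proteasome subunits tested had a log2 fold change below 0, with a median of -0.50 and a range of -0.75 to -0.13, whereas 46.9% of all genes lay below 0. None had an unadjusted p under 0.05. PSMB6, a catalytic subunit, was at 533, 530 and 626 FPKM in the MV group and at 478, 362 and 286 in the MV_PEEP group (log2 fold change -0.75, SE 0.46), and at 463, 297 and 427 in the CON group. PSMD14, which removes ubiquitin chains at the entry of the proteasome, was at 41.0, 63.6 and 75.1 FPKM against 55.3, 36.7 and 34.7 (log2 fold change -0.69). For PSMB6 every MV_PEEP library was below every MV library in FPKM, whereas for PSMD14 MV_PEEP replicate 1 was within the MV range. In scaled CPM the groups overlapped for PSMB6 and for all other subunits tested. Without MV_PEEP replicate 3, which held the lowest value of 23 of the 30 subunits, 23 were below 0 and the median was -0.23. Without MV replicate 3, 29 were below 0 and the median was -0.21. MV_PEEP replicate 3 was also the library with the lowest sum of muscle fibre markers (22970 FPKM), and the part of muscle content in these values was not tested.

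Heat shock proteins and other chaperones had mostly negative fold changes as well, also without a test of the list. Of 22 tested, 21 were below 0 with a median log2 fold change of -0.53, and the median lay between -0.43 and -0.76 when any 1 of the 6 libraries was left out. HSPH1, a partner of HSP70 in unfolding aggregates, was at 30.6, 16.1 and 13.9 FPKM in the MV group, at 11.3, 9.31 and 11.3 in the MV_PEEP group and at 4.66, 6.15 and 8.89 in the CON group. Its MV_PEEP values were level and lay below every MV value and above every CON value (log2 fold change -1.07, SE 0.38). HSP90AA1, the inducible HSP90, was at 419, 286 and 201 FPKM against 206, 158 and 175. HSPB1, the small heat shock protein HSP27, was at 2090, 3557 and 761 against 896, 1267 and 664, with MV replicate 3 among the MV_PEEP values. HSPA4, another HSP70 partner, was at 81.4, 77.5 and 44.3 FPKM against 43.8, 53.6 and 40.4. CRYAB, a small heat shock protein of the sarcomere named here after its values were seen, was at 14410, 35140 and 12160 FPKM against 12120, 12130 and 4844. HSPH1, HSP90AA1, HSPA4 and CRYAB were the 4 chaperones of 22 without overlap between the groups in scaled CPM, beside 2.48% of all genes that were lower without overlap.

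The CCT chaperonin, a ring that folds actin and tubulin, had 7 of 8 subunits below 0 with a median log2 fold change of -0.55. CCT5 was at 117, 158 and 160 FPKM in the MV group and at 111, 84.8 and 103 in the MV_PEEP group (log2 fold change -0.75, SE 0.41). Every MV_PEEP library was below every MV library for CCT5 in FPKM, while its CON values were 59.2, 71.4 and 71.8. In scaled CPM the MV and MV_PEEP groups overlapped for CCT5. Over single libraries left out, the median of the 8 subunits ran from -0.28 without MV replicate 3 to -0.96 without MV_PEEP replicate 1. Cytosolic ribosomal proteins had 32 of 33 members below 0 with a median of -0.51, but this rested on 1 library. Without MV replicate 3, 14 were below 0 and the median was 0.03. The summed FPKM of the 33 genes was 79060 in that library and 36230 to 49770 in the other 5. RPL32 was the member with the smallest p, at 72.5, 138 and 155 FPKM against 74.1, 53.5 and 37.1 (log2 fold change -1.32, SE 0.54). Ribosomal protein genes have many near-identical copies in mammalian genomes, so the reads of single members are uncertain.

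**Figure D4:**
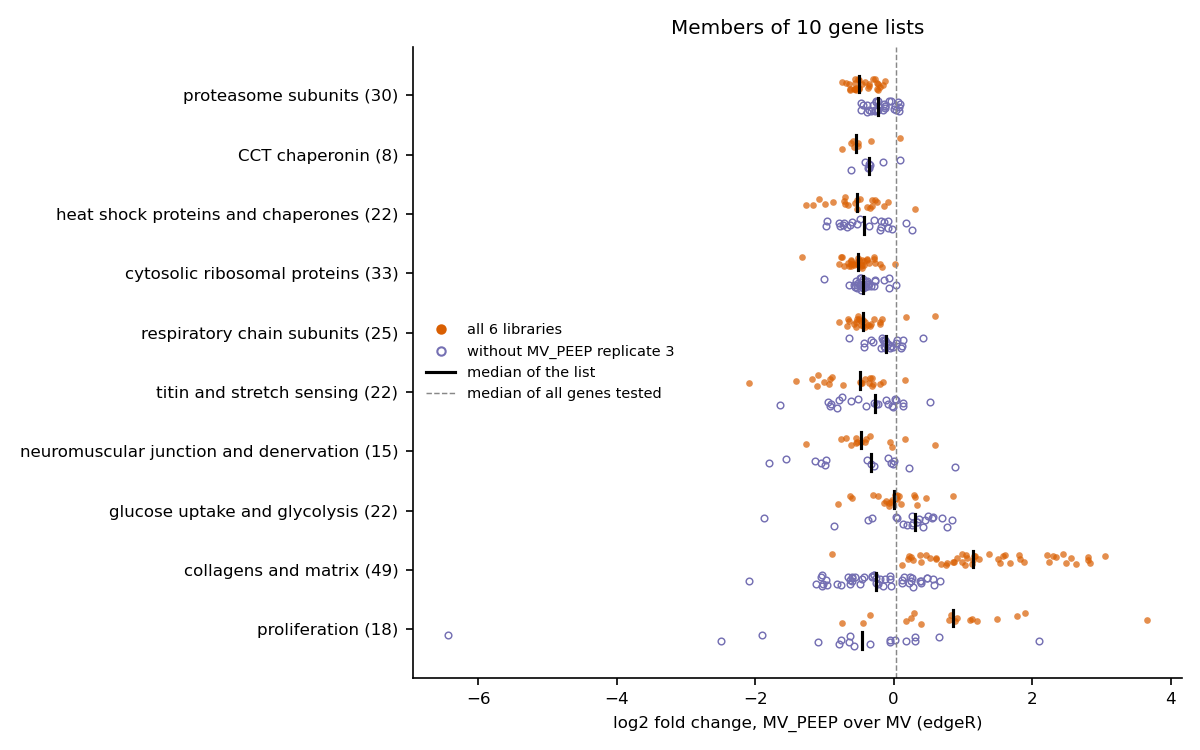
Log2 fold change of each tested member of 10 gene lists, MV_PEEP over MV in edgeR, with all 6 libraries (filled) and without MV_PEEP replicate 3 (open); black bars are the medians of the lists and the dashed line the median of all genes tested. Proteasome and most chaperone genes lie left of the dashed line with all libraries (medians -0.50 and -0.53) and closer to it without MV_PEEP replicate 3 (-0.23 and -0.43), matrix genes move from 1.14 to -0.26 and proliferation genes from 0.86 to -0.46.

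The muscle-specific ubiquitin ligases FBXO32 (MAFbx) and TRIM63 (MuRF1), which mark proteins of the fibre for the proteasome, did not separate the groups. FBXO32 was at 136, 63.1 and 35.2 FPKM in the MV group, at 100.5, 82.2 and 73.1 in the MV_PEEP group and at 21.4, 25.6 and 3.31 in the CON group. The MV_PEEP values sat inside the MV range, with 78.2 ± 52.2 against 85.3 ± 13.96 FPKM (SD, n = 3 each) and a log2 fold change of 0.04 (SE 0.53). TRIM63 was at 296, 86.4 and 52.8 FPKM against 166, 134 and 219, and at 37.3, 54.9 and 25.3 in the CON group (log2 fold change 0.12, SE 0.58). MV replicate 1 was the highest library for both genes. Without it the log2 fold change was 0.60 for FBXO32 and 1.04 for TRIM63, and without MV replicate 3 it was -0.25 and -0.23. Of 14 atrophy ligases tested, 5 were above 0 and 9 below, with a median of -0.06. TRIM54 (MuRF3), a ligase of the sarcomere, was at 435, 388 and 249 FPKM against 233, 305 and 165 (log2 fold change -0.73, SE 0.46). Of 21 genes of autophagy and lysosomes, 8 were above 0 and 13 below (12 and 9 without MV replicate 3), none with an unadjusted p under 0.05.

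The genes of cell cycle arrest that the study followed varied more within the groups than between them. CDKN1A, the cell cycle inhibitor p21, was at 28.0, 10.5 and 1.49 FPKM in the MV group and at 3.77, 9.14 and 12.3 in the MV_PEEP group. Its log2 fold change was -0.82 (SE 0.82) and turned to 0.24 without MV replicate 1. CHEK2, a kinase of the DNA damage checkpoint, was at 5.44, 4.61 and 2.19 FPKM against 5.11, 4.09 and 4.14 (log2 fold change 0.01, SE 0.47). MMP9, a matrix protease of leukocytes, was under the filter at 0.912, 0.0696 and 0 FPKM against 0, 0.681 and 0.378. CDKN1A and CHEK2 shared their lowest MV value in replicate 3.

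As a list, 16 genes of DNA damage sensing had 9 members above 0 and 7 below. OGG1, which removes oxidized guanine from DNA, was at 1.47, 1.12 and 1.49 FPKM in the MV group and at 3.65, 2.99 and 5.23 in the MV_PEEP group. Its groups did not overlap and its CON values of 3.28, 4.07 and 3.75 lay with those of the MV_PEEP group (log2 fold change 1.28, SE 0.61). The secretory proteins of senescent cells turned with MV_PEEP replicate 3, from 9 of 15 above 0 (median 0.13) to 3 of 15 (median -0.62). Proliferation genes did so too, from 15 of 18 above 0 (median 0.86) to 6 of 18 (median -0.46).

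Genes that respond to stretch of the sarcomere were mostly lower in the MV_PEEP group. Of 22 tested, 21 were below 0 with a median log2 fold change of -0.48, and none had an unadjusted p under 0.05. ANKRD1, a stretch-induced protein that docks on titin, had the smallest p. It was at 183, 750 and 132 FPKM in the MV group, at 50.7, 184 and 31.7 in the MV_PEEP group and at 12.4, 55.4 and 63.2 in the CON group. MV_PEEP replicate 2 reached the MV range, and the log2 fold change of -2.09 (SE 0.91) was -0.99 without MV replicate 2 and -3.20 without MV_PEEP replicate 2. NRAP, which anchors actin at the ends of myofibrils, was at 415, 691 and 545 FPKM against 365, 234 and 350 (log2 fold change -1.0, SE 0.51). All MV_PEEP values of NRAP were below all MV values in FPKM, whereas in scaled CPM its groups overlapped. XIRP2, an actin-binding protein of the fibre ends, was at 27.6, 100.1 and 47.2 FPKM against 31.0, 37.2 and 22.3, and FLNC, the filamin of the Z-disc, at 282, 319 and 160 against 153, 181 and 103. HSPB7, a small heat shock protein that binds filamin, was at 360, 1417 and 812 FPKM against 609, 413 and 220. Without MV_PEEP replicate 3, whose muscle marker sum was the lowest and which held the lowest value of 13 of the 22 genes, 17 were below 0 with a median of -0.27. Of 10 Hippo and mechanosensitive targets, 9 were above 0 (median 0.61), with 7 above 0 and a median of 0.20 without that library. AJUBA, a LIM protein that restrains Hippo kinases at cell junctions, was at 0.274, 1.02 and 0.50 FPKM against 0.952, 1.81 and 4.47 (log2 fold change 1.66, SE 0.72).

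Contractile genes of fast and slow fibres showed no common direction. Of 11 fast fibre genes, 6 were above 0 and 5 below (median 0.03), and of 9 slow fibre genes 2 were above 0 and 7 below (median -0.17). The slow fibre count turned to 6 above 0 and 3 below without MV_PEEP replicate 3 (median 0.12). MYH4, the myosin of the fastest fibres, was the fast fibre gene with the smallest p, at 33.4, 49.6 and 6.91 FPKM in the MV group, at 66.9, 285 and 52.2 in the MV_PEEP group and at 25.4, 147 and 149 in the CON group. MV_PEEP replicate 2 was far above the others, and the log2 fold change of 2.10 (SE 0.89) was 0.89 without it. The embryonic myosin MYH3, which regenerating fibres express, was also highest in MV_PEEP replicate 2, at 7.17, 12.5 and 2.35 FPKM against 13.9, 122 and 18.0. Its groups did not overlap (log2 fold change 2.71, SE 0.98; 0.93 without MV_PEEP replicate 2). Reads of myosin genes can be shared, because the coding sequences of these neighbours are alike, so the split between MYH3, MYH4 and other family members is uncertain. Without MV_PEEP replicate 3, 10 of 11 fast fibre genes were above 0 with a median of 0.40, and without MV_PEEP replicate 2 the median was -0.29. Of 15 genes of the neuromuscular junction and denervation, 13 were below 0 (median -0.47). MUSK, the receptor kinase that gathers acetylcholine receptors at the synapse, was at 9.0, 5.33 and 16.4 FPKM in the MV group, at 5.14, 6.07 and 3.87 in the MV_PEEP group and at 0.405, 0.715 and 1.23 in the CON group (log2 fold change -1.27, SE 0.56). CHRNA1, the alpha subunit of that receptor, was at 9.998, 12.3 and 20.98 FPKM against 11.5, 13.2 and 10.3. Both genes were highest in MV replicate 3, without which the log2 fold change of MUSK was -0.54.

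Genes of energy metabolism split by library more than by group. Of 25 respiratory chain subunits, 23 were below 0 with a median log2 fold change of -0.45, and 19 had their lowest value in MV_PEEP replicate 3. Without that library 19 were below 0 with a median of -0.12, and without MV_PEEP replicate 1 the median was -1.01. NDUFV2, a core subunit of complex I, was at 641, 641 and 510 FPKM in the MV group and at 542, 440 and 265 in the MV_PEEP group (log2 fold change -0.64, SE 0.48). UQCRB, a subunit of complex III, was at 1701, 1008 and 688 against 915, 742 and 396. CYCS, the electron carrier cytochrome c, was listed among the apoptosis genes. It was at 334, 295 and 422 FPKM against 198, 91.7 and 196, with no overlap and a log2 fold change of -1.34 (SE 0.48; -1.31 without MV_PEEP replicate 3). Of 22 genes of glucose uptake and glycolysis, 11 were above 0 and 11 below, but 18 were above 0 without MV_PEEP replicate 3 (median 0.31). Among 22 genes of fatty acid use, 7 were above 0 and 15 below, which turned to 13 and 9 without MV_PEEP replicate 3. UCP2, an uncoupling protein of the inner mitochondrial membrane, was at 4.03, 5.40 and 3.01 FPKM against 5.14, 9.51 and 28.8 (log2 fold change 1.47, SE 0.54; 0.77 without MV_PEEP replicate 3). Of 22 antioxidant genes 16 were below 0, but 8 were below 0 without MV replicate 3, with SRXN1, which repairs oxidized peroxiredoxins, at 260, 200 and 870 FPKM against 259, 188 and 111.

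Genes of the matrix and of connective tissue were higher in the MV_PEEP group with all libraries and not without replicate 3. Of 49 collagen and matrix genes, 48 were above 0 with a median log2 fold change of 1.14, 46 of them were highest in MV_PEEP replicate 3, and 16 were above 0 without it (median -0.26). COL1A1, the main chain of type I collagen, was at 12.3, 38.8 and 14.1 FPKM in the MV group and at 8.38, 23.9 and 616 in the MV_PEEP group. MV_PEEP replicates 1 and 2 were within the MV range or below it. FN1, fibronectin, was at 2.87, 3.04 and 1.07 FPKM against 0.974, 3.65 and 50.9, and COL15A1, a collagen of basement membranes, at 10.8, 11.8 and 8.23 against 9.89, 22.03 and 47.8. All 12 fibroblast markers were highest in MV_PEEP replicate 3, and TCF21, a transcription factor of fibroblast precursors, was read in it alone (11.8 FPKM). The adipocyte markers CIDEC, a coat protein of lipid droplets, and ADIPOQ, the hormone adiponectin, were at 272 and 132 FPKM in that library and at most 1.64 and 10.9 in the other 5 ventilated libraries. The median over 12 fibroblast markers was 1.602 with all libraries and -0.52 without it, over 9 macrophage and monocyte markers 1.43 and 0.11, and over 9 smooth muscle and pericyte markers 0.62 and -0.01. PDGFRB, a growth factor receptor of pericytes, was at 4.76, 4.48 and 4.64 FPKM against 5.37, 8.74 and 28.7. Of these 9 markers only PDGFRB had no overlap between the groups in scaled CPM, beside 3.42% of all genes that were higher without overlap. Its log2 fold change was 1.26 (SE 0.51), and 0.54 without MV_PEEP replicate 3. Endothelial markers had 11 of 12 members above 0 (median 0.36), with a median of 0.06 without MV_PEEP replicate 3 and of -0.02 without MV replicate 3, which had the lowest endothelial sum (75.8 FPKM).

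Immediate early genes, which muscle and immune cells switch on within minutes, had 11 of 17 members above 0 with a median of 0.54. The median was -0.14 without MV_PEEP replicate 2, 0.09 without MV replicate 3 and 1.84 without MV replicate 1. FOS was at 61.6, 16.2 and 8.23 FPKM in the MV group and at 13.8, 232 and 82.6 in the MV_PEEP group, and FOSB, its close relative, at 1.76, 0.302 and 0.0919 against 0.144, 20.6 and 1.17. NR4A1, a nuclear receptor of the same response, was at 34.6, 12.4 and 6.09 FPKM against 34.9, 87.2 and 27.6. Replicate 2 was the highest MV_PEEP library in each of these, as it was for EGR1, and replicate 1 the highest MV library. SGK1, a kinase induced by glucocorticoids, was at 22.1, 20.9 and 10.4 FPKM against 20.7, 64.4 and 71.1 (log2 fold change 1.32, SE 0.47; 1.21 without MV_PEEP replicate 3). FKBP5, another glucocorticoid-induced gene, was at 195, 67.6 and 24.2 FPKM against 28.8, 78.0 and 72.8, and the list of 16 glucocorticoid response genes had 6 members above 0 and 10 below, which turned to 13 and 3 without MV replicate 1.

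Inflammatory genes depended on MV replicate 1 and MV_PEEP replicate 3. Of 20 genes of inflammation and NF-kB, 7 were above 0 and 13 below (median -0.14), but 15 were above 0 without MV replicate 1 (median 0.92) and 4 without MV_PEEP replicate 3 (median -0.59). IL6, a cytokine, was at 17.6 FPKM in MV replicate 1 and at no more than 0.460 in the other 5. The neutrophil alarmins S100A8 and S100A12 were at 443 and 293 FPKM in it, against 13.7 to 131 and 4.86 to 73.8 in the others and at most 9.81 and 0.616 in the CON group. All 3 MV_PEEP libraries were thus above the CON group for both genes, and their log2 fold changes against the MV group were -1.06 and -0.94 (SE 1.14 and 1.21). The median over 6 neutrophil markers was -0.83 with all libraries and 2.09 without MV replicate 1. SAA1, an acute phase protein, was at 2.17, 30.6 and 7.21 FPKM in the MV group and at 413, 3.96 and 4.97 in the MV_PEEP group, so that 1 library set its log2 fold change of 3.45 (SE 1.87).

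**Figure D5:**
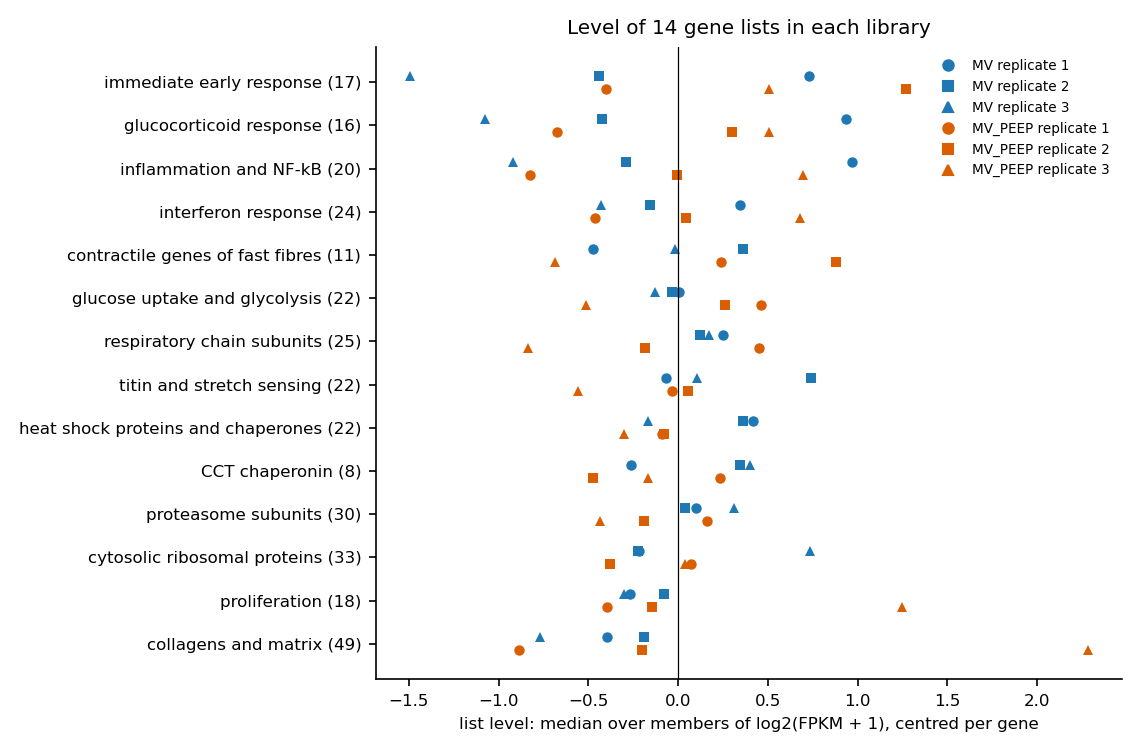
Level of 14 gene lists in each of the 6 ventilated libraries, as the median over the tested members of log2(FPKM + 1) after subtracting each gene's mean over the 6 libraries; the number of members is in parentheses. The groups are mixed in every list shown, with MV replicate 1 highest for inflammation (0.97), MV_PEEP replicate 2 for immediate early genes (1.27), MV replicate 3 for ribosomal proteins (0.73) and MV_PEEP replicate 3 for matrix genes (2.29).

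The genes with the widest spread inside a group were each set by 1 or 2 libraries. In the MV_PEEP group the 5 most variable, by SD of log2(FPKM + 1) among genes with a mean of at least 5 FPKM, were all high in replicate 3. LBP and HP, plasma proteins of the acute phase, were at 263 and 16770 FPKM in it and at no more than 0.0936 and 454 in the other 5 libraries. CYP2B4, a cytochrome P450 of the rabbit, was at 281 FPKM against at most 0.578. CIDEA, a lipid droplet protein of brown fat, was at 621 against at most 2.46, and PCK1, the key enzyme of glucose synthesis that fat cells also use, at 162 against at most 0.173. In the MV group UCN3, a peptide hormone, was at 58.5 FPKM in replicate 3 and at 0.155 and 0.122 in replicates 1 and 2. ACTC1, the cardiac actin that regenerating fibres re-express, was at 830 FPKM in replicate 2 and at 15.6 and 23.8 in replicates 1 and 3, and LCN2 and S100A12, proteins of neutrophils, were at 40.1 and 293 FPKM in replicate 1. RPL34, a ribosomal protein, was at 936, 8.13 and 17.3 FPKM in the MV group, at 9.14, 12 and 409 in the MV_PEEP group and at 779, 244 and 52.4 in the CON group. Its reads may be split with near-identical copies, and no library of either ventilated group lay between 17.3 and 409.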

How the data were processed

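RNA-seq libraries of rabbit diaphragm were made from poly(A) RNA with dUTP marking of the second strand. Per the submitters' processing notes, reads were trimmed with cutadapt 1.9 and aligned with HISAT2 2.0.4 to OryCun 2.0. The deposited counts are whole-number counts per gene from the authors' alignments, not scaled; the counting program, its strand setting and the annotation release are not given in the sources used here. The deposited FPKM values, for which the authors' notes name StringTie 1.3.4d, stand at 0.0001 where the count is 0, given as 0 here. They are scaled to library size and transcript length and not by TMM, whose factors ran from 0.784 in MV replicate 3 to 1.34 in MV_PEEP replicate 3, so FPKM and scaled CPM can order libraries differently. Of the counts from 1 to 12, 55.2% were multiples of 4. Symbols are those of the table, with 764 LOC names replaced through a gene table of another assembly, used for names only. Counting error was not compared with the spread between libraries, and some genes described rest on few reads, such as ALOX15 with 4 over the MV group.

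The 13052 genes were tested on the counts in R 4.3.3 with edgeR 4.0.16 (TMM, estimateDisp, glmQLFit in its legacy form, glmQLFTest, 2-sided, 1 mean per group), with p-values adjusted by Benjamini-Hochberg over all genes tested and a threshold of 0.05. For ranking, genes past an unadjusted p of 0.05 with a log2 fold change beyond 1 in size were counted. The common biological coefficient of variation was 0.605, with 4 residual and 3.80 prior degrees of freedom. Differences in the text carry a standard error (SE) of the edgeR log2 fold change. It was worked back from the test, as the absolute log2 fold change over the square root of the F statistic. The SE therefore adds no information to the fold change and its p. Adjusted p-values of the edgeR test were all at least 0.9989. Exact 2-sided permutation tests ran over all 20 assignments of the 6 libraries. Steps were tested on simulated data.

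Named were up to 12 genes per direction with the smallest p among those past both lines whose mean FPKM reached 1 and whose symbol was not a LOC number (126 higher and 43 lower qualified), up to 5 members with the smallest p of each list described, the 8 genes the study followed, defining cell type markers, and the 5 most variable genes of each group. The 52 gene lists (37 of roles, 15 of cell type markers, 849 genes) and the members were chosen with earlier results of these data known, so lists are described by counts and medians, without a test. Alternatives were DESeq2 1.42.0, limma 3.58.1 (voom, and with trend on log2(FPKM + 1) or log2(FPKM + 0.1)), other scalings, filters and dispersion settings, counts divided by 4, all 9 libraries, a replicate block, and leaving out each library. Some genes that the rule chose are not reported here.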

Additional observations from a re-analysis of the deposited data

How the results depend on the processing

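The count of 0 genes called held under the alternatives tried, with the exception of DESeq2, which called 4 genes higher and 7 lower. The number past both lines moved more. Higher in the MV_PEEP group were 173 genes, against 273 with all 9 libraries in the fit, 70 with limma on log2(FPKM + 1), 81 with voom and 400 with no filter on low values, and 65 to 503 when 1 library was left out (65 without MV_PEEP replicate 3, 113 without MV replicate 3, 115 without MV replicate 1, 303 without MV_PEEP replicate 2, 503 without MV_PEEP replicate 1). Lower were 93 genes, against 148 with DESeq2, 52 and 42 with limma on log2(FPKM + 0.1) and log2(FPKM + 1), 165 with no filter, 46 without scaling, and 79 to 197 when 1 library was left out (197 without MV_PEEP replicate 1). No filter tests more genes; for the others the cause was not tested. The 24 genes the rule chose past both lines kept their direction in all alternatives, in 4 cases passing the adjusted threshold (with DESeq2, among them RFX5, APOE and MTSS1). Of the medians of 52 lists under 20 alternatives, 1032 moved by less than the spread between libraries and 8 by more. That spread was wide, so the counts do not mean that the medians were stable. Some changed sign when 1 library was left out, that of the matrix list from 1.14 to -0.26 and that of neutrophil markers from -0.83 to 2.09.

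Same-numbered libraries did not deviate together (r = -0.27, 0.08 and -0.19 for replicates 1, 2 and 3; MV replicate 3 was closest to MV_PEEP replicate 1, at 0.40), so pairing by number was not assumed. With the replicate block, 82 genes were higher and 60 lower past both lines, and 0 were called. With 3 libraries a group and a common coefficient of variation of 0.605, small differences could not be detected, and large ones did not pass in edgeR either. MTSS1, with a log2 fold change of -2.98, had a Benjamini-Hochberg adjusted p of 0.999 in edgeR. The count of 0 genes called therefore does not show that large differences were absent.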

Other observations

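A few features outside the rule for named genes are given here because of their values, which were seen first. LOC103350348, annotated as calmodulin-binding transcription activator 1-like at chr13:142460634-142878674, had 0 reads in all 3 CON and all 3 MV libraries and 217, 107 and 169 reads in MV_PEEP replicates 1, 2 and 3 (7.74, 4.19 and 5.37 FPKM). Against a floor of 3 counts per library it was at least 46.7-fold higher in the MV_PEEP group (edgeR, Benjamini-Hochberg adjusted p = 0.999).

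Some ribosomal protein loci known by a LOC number had lower values in the MV_PEEP group. LOC100347177, annotated as 60S ribosomal protein L27, was at 388, 320 and 351 FPKM in the MV group, at 119, 177 and 144 in the MV_PEEP group and at 91.3, 91.1 and 123.2 in the CON group (log2 fold change -1.47, SE 0.36). LOC100345879, annotated as 60S ribosomal protein L9, was at 77.2, 14.6 and 22.1 FPKM against 4.44, 4.39 and 3.54, and at 4.31, 3.87 and 3.98 in the CON group (log2 fold change -3.30, SE 0.67). LOC100343607, annotated as 60S ribosomal protein L3, overlapped, at 22.7, 31.6 and 3.15 FPKM against 1.48, 2.38 and 6.42 (log2 fold change -2.72, SE 0.79). Such loci can be near-identical copies of expressed genes, so how reads were divided among copies bears on these values and was not tested.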
